A study of Rattus norvegicus with 8 samples.

Results

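The genes described here encode the machinery that brings nuclear-encoded proteins into mitochondria. They were chosen by name on the array: every gene whose name begins with Timm, Tomm, Grpel, Immp, Mtx or Pmpc, together with Samm50, Chchd4, Gfer and Pam16. This rule found 33 genes on 41 probes, of 26183 gene names on 30328 probes, and all 33 had a probe bright enough to be tested among 16908 genes. Pam16 itself is listed on the array under its older name Magmas, so it is given apart. The cells were N27 cells, an immortalised rat line made from the embryonic midbrain and described in the labels as dopamine producing. All groups were grown in RPMI medium. The control group has no agent named in the labels. The Mn group received manganese at 150 µM for 48 h, and the MPP+ group received 250 µM for 48 h of a known inhibitor of respiratory complex I. The last group is labelled 3-NPA. It is taken here as 3-nitropropionic acid, which is known to block respiratory complex II, and the labels state neither how much was given nor for how long. The line is an immortalised model, and whether the replicates were separate cultures is not stated, so the p-values speak only of how much these arrays vary.

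Nearly all mitochondrial proteins are made in the cytosol and cross the outer membrane through the TOM complex, a channel with receptor subunits. From there the SAM complex inserts barrel proteins into the outer membrane, the Chchd4 and Gfer relay traps small cysteine-rich proteins in the intermembrane space, and small TIM chaperones escort carrier proteins to the TIM22 complex. Precursors with a presequence cross the inner membrane through TIM23, are pulled in by an ATP-driven motor, and lose the presequence to a matrix peptidase. Both the pull of the motor and the passage through TIM23 depend on the respiratory chain, through ATP and the membrane potential.

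There were 2 single-colour arrays per group, and the 8 arrays shared 1 slide and 1 scan. Between 32711 and 41354 spots per array were well above background (55.7% to 70.4% of the spots that were not controls), with the lowest numbers on the control arrays, and 0 spots were saturated. Below, a level is a probe's processed signal as a multiple of the 75th percentile of its array, a change is a difference of mean log2 levels, and a value after ± is its standard error from limma (n = 2 arrays per group). Levels are relative to each array, and in RNA from many cells fewer cells of one type and less of an RNA per cell cannot be told apart. Control and Mn arrays were in row 1 of the slide and MPP+ and 3-NPA arrays in row 2. Where MPP+ or 3-NPA is set against control or Mn, slide row and toxin cannot be told apart. The 3-NPA arrays came from a later of 2 image extraction runs, so that extraction run and 3-NPA cannot be told apart. Of 10 genes listed as dopaminergic markers, 9 were on the array. Of these, 4 were above background in the control group, 5 with Mn, 6 with MPP+ and 7 with 3-NPA. Slc6a3, the dopamine transporter, and Foxa2 were not well above background on any array. At an adjusted p below 0.05 in limma, Aldh1a1 was lower with Mn (-3.611) and MPP+ (-2.525). Ddc was higher with 3-NPA (2.011), and Pitx3 with MPP+ (0.978) and 3-NPA (1.825). Th, Nr4a2, Slc18a2 and Lmx1b did not pass with any toxin. Having 2 arrays per group limits the precision throughout.

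Several import genes exist as pairs of relatives, so the probes of one such pair are shown to let their letters be compared. Tomm40 encodes the channel of the TOM complex and Tomm40l a relative of it. Both probes are 60 bases long and their placement on the rn4 assembly spans more than their own length, so that each crosses a splice junction: 594 bases on chromosome 1 (79018861 to 79019454, minus strand) for Tomm40 and 270 bases on chromosome 13 (87109832 to 87110101, minus strand) for Tomm40l. The probe of Timm13, a small TIM chaperone called with 3-NPA, is shown beside them and also crosses a junction (285 bases of chromosome 7, 10320228 to 10320512, plus strand). Each has 0 stop codons in at least 1 forward frame.
Tomm40: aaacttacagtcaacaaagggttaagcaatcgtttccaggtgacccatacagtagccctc
Tomm40l: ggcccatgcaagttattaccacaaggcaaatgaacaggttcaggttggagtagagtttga
Timm13: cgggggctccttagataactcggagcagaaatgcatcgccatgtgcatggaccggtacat

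At the best placement without gaps, the Tomm40 and Tomm40l probes share 23 of 55 aligned bases. The same count was 22 of 49 bases for Timm17a and Timm17b, and 21 of 60 for Grpel1 and Grpel2. It was 22 of 54 for Timm8a1 and Timm8b. Probe was compared with probe only. How well a probe matches the transcript of the relative was not tested. Processed copies are a separate matter. RefSeq's gene table for the GRCr8 assembly lists 8 pseudogenes of Timm23, 4 of Tomm7, 2 each of Timm8a1, Tomm20 and Pmpcb, and 1 each of Timm17a, Timm21, Chchd4 and Tomm70a. Readings of these genes are uncertain to that extent, and the share of signal from such copies was not tested.

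With 3-NPA more import genes were called lower than higher. At an adjusted p below 0.05, 13 of the 33 were lower than control and 3 were higher, with a median log2 change of -0.20 against 0.05 over all 16908 genes. The lower calls made up 39.4% of the import genes, where 16.0% of all genes were lower, and the higher calls 9.09%, where 22.3% of all genes were higher (38.3% of all genes called in either direction). The 13 came from most stages of the pathway: Tomm40, Tomm40l and Tomm7 of the outer membrane pore, Mtx1 of the SAM complex, Timm8b and Timm13 of the small chaperones, Timm22, Timm17a and Timm17b of the inner membrane translocases, Grpel1 and Timm44 of the motor, and the peptidase subunits Pmpca and Immp1l. Tomm40l was on no control array well above background, Timm44 on no control or 3-NPA array, and Timm8a2, among the higher 3, on the 3-NPA arrays only. Without these 3 genes, among genes above background on all 8 arrays, the same fit had 11 of 30 lower and 2 higher (all such genes 20.1% and 18.6%). The 3-NPA arrays did not overlap the control arrays for 30 of the 33 (90.9%, against 71.9% of all genes), 22 of them lower and 8 higher.

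These counts depend on single arrays and on the genes they are set against. Without 3-NPA replicate 1 the calls numbered 8 (1 higher and 7 lower), and without 3-NPA replicate 2 they numbered 7 (1 higher and 6 lower). The share of all genes called fell with them, from 38.3% to 21.3% and 21.7% (lower 8.05% and 8.37%). Scaling by the array median gave 2 higher and 13 lower and a median of -0.34, while the median of all genes moved to -0.09. It shifts both medians alike, so the distance between them, -0.25, could not change. It also turned the balance of all genes, from 22.3% higher and 16.0% lower to 15.4% higher and 20.7% lower. The distance was -0.17 with quantile normalization and -0.15 in the fit on genes above background on all 8 arrays. Over 21 alternatives it ran from -0.31 to 0.07. Fitted on genes above background on all 8 arrays alone, 11 of 30 import genes were lower and 2 higher, against 22.9% and 20.7% of all. With no filter on dim probes 12 of 33 were lower against 31.9% of all, and the median of all genes, -0.27, lay below that of the import genes.

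Fewer import genes were called with MPP+ and Mn. With MPP+, 4 import genes rose (Timm8a1, Timm9, Timm10b and Gfer) and 2 were lower (Tomm7 and Timm8a2), or 18.2% against 13.9% of all genes (higher 7.47%, lower 6.47%). Timm8a2 was not well above background on any control or MPP+ array. Among genes above background on all 8 arrays the same fit had 4 of 30 higher and 1 lower, against 6.87% and 7.09% of all such genes. Fitted on those genes alone, Timm17a (adjusted p = 0.0443) was lower as well as Tomm7, against 9.57% of all. The median change was 0.05, against 0.02 over all genes. With Mn the only call was a rise of Timm8a1, which is 3.03% of the import genes against 7.66% of all genes (4.50% higher and 3.16% lower). At an unadjusted p below 0.05 in limma, 3 were higher and 2 lower with Mn, where 2341 and 2029 of all 16908 genes were. With trended, robust variances limma called 2 higher and 1 lower, against 5.1% and 4.58% of all genes. Arrays of the groups did not overlap for 23 of 33 with MPP+ (69.7%, against 63.5% of all genes) and for 16 of 33 with Mn (48.5%, against 50.5%). Fewer than the 6 calls with MPP+ were made without either MPP+ array, control replicate 1 or either 3-NPA array. The single Mn call was lost without control replicate 1 and without any one of the Mn, MPP+ and 3-NPA arrays. In each of these fits fewer of all genes were called as well. The losses therefore cannot be read as particular to the import genes. The 3 toxins were set against the same 2 control arrays.

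**Figure D1:**
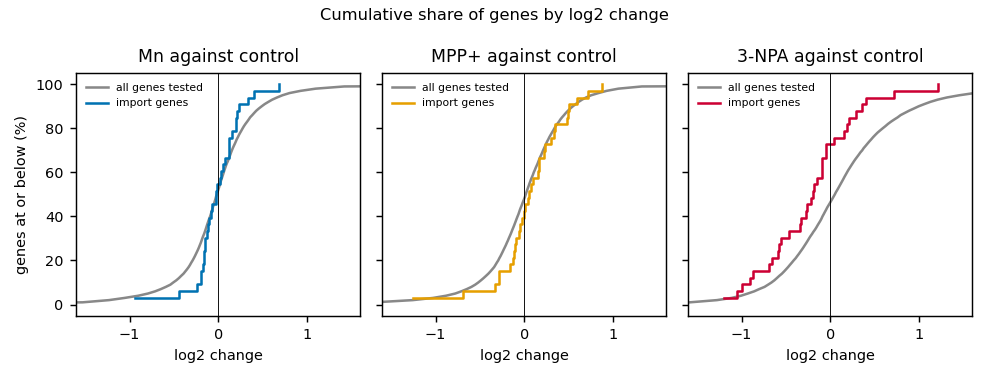
Cumulative share (%) of genes at or below each log2 change against control, for all 16908 genes tested (grey) and the 33 import genes (coloured), 1 panel per toxin; changes beyond 1.6 on either side lie outside the panels. With 3-NPA the coloured line lies left of the grey one (medians -0.20 and 0.05), while with Mn (-0.02 and -0.02) and MPP+ (0.05 and 0.02) the medians are close.

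**Figure D2:**
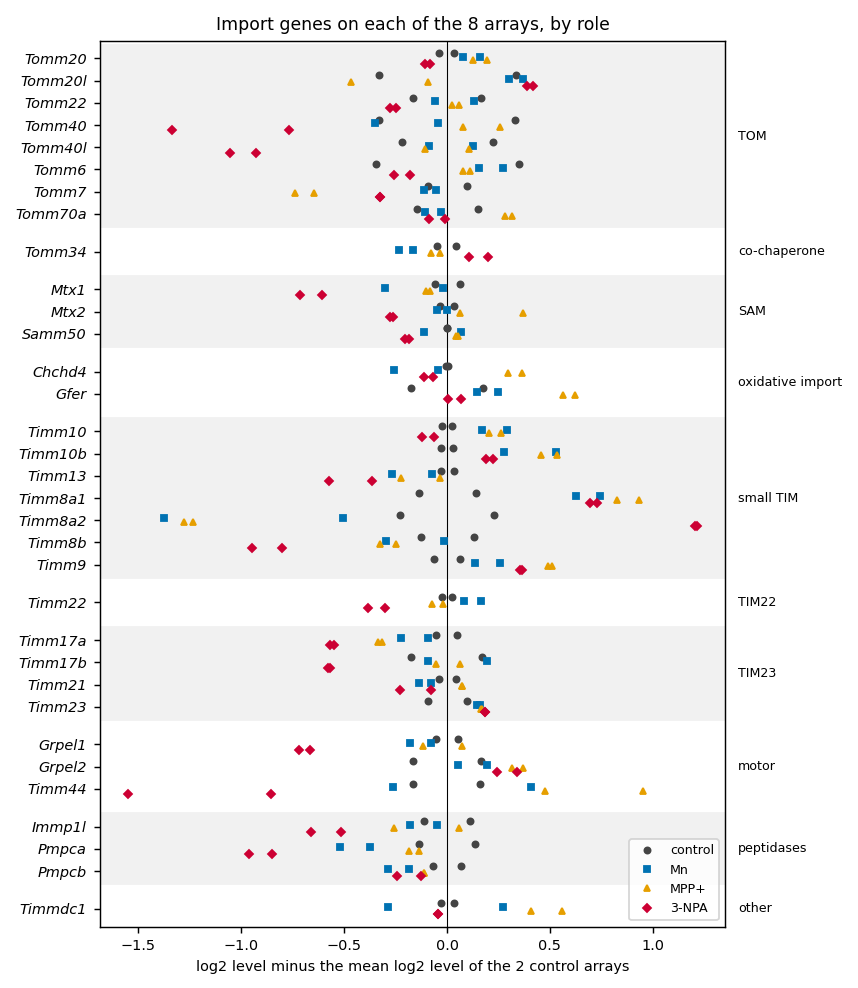
Log2 level of each of the 33 import genes on each of the 8 arrays, minus the mean of the 2 control arrays, grouped by role; each symbol is 1 array. The 3-NPA diamonds lie below both control points for 22 genes and above both for 8, and Tomm40l, Timm44 and Timm8a2 were not well above background on the control arrays.

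At the outer membrane, Tomm40, Tomm40l and Tomm7 were called lower with 3-NPA, and Tomm6 and the receptor genes were not called. The difference between them was not tested. Tomm40 had levels of 0.343 and 0.217 on the control arrays, 0.214 and 0.265 with Mn, 0.288 and 0.326 with MPP+, and 0.160 and 0.108 with 3-NPA. The 3-NPA arrays were the lowest of the 8, yet the control arrays differed from each other by more than the lower of them differed from the higher 3-NPA array. The change was -1.05 ± 0.28 (2.08-fold lower, adjusted p = 0.0297), and it was lost with the 4 arrays of these groups alone and without control replicate 1, either MPP+ array or 3-NPA replicate 2, with adjusted p up to 0.136. Tomm40l read 0.0439 and 0.0323 on the control arrays, where it was not well above background, 0.0354 and 0.0411 with Mn, 0.0405 and 0.0350 with MPP+, and 0.0198 and 0.0181 with 3-NPA. The 3-NPA arrays were the lowest and the other groups overlapped (-0.99 ± 0.18, adjusted p = 0.00744). No fold is given for it, and with the normexp background correction its change was -0.40.

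Tomm7, a small subunit that modulates the assembly of the pore, was the one TOM gene called with MPP+. Its levels were 14.8 and 16.9 on the control arrays, 15.2 and 14.6 with Mn, 10.1 and 9.48 with MPP+, and 12.6 on both 3-NPA arrays. The MPP+ arrays were the lowest and overlapped with no other group. The fall with MPP+ was 1.61-fold (-0.69 ± 0.10, adjusted p = 0.0116), and it was lost with the 4 arrays alone and without either MPP+ array (adjusted p up to 0.0963). With 3-NPA the change of Tomm7 was -0.33 ± 0.10 (adjusted p = 0.0477), a call that was lost in 13 of 20 alternatives, among them quantile normalization and the removal of control replicate 2 or of any one Mn, MPP+ or 3-NPA array.

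The receptor genes Tomm20, Tomm22 and Tomm70a did not pass with any toxin. Tomm22, the central receptor, read 40.9 and 51.5 on the control arrays and 37.8 and 38.6 with 3-NPA (-0.26 ± 0.14, adjusted p = 0.173). Tomm20 had changes of 0.12, 0.16 and -0.09 with Mn, MPP+ and 3-NPA, and Tomm70a, the receptor for carrier precursors, changes of -0.07, 0.30 and -0.05. Tomm70a (current symbol Tomm70) read 8.04 and 7.86 with MPP+, above all other arrays (5.83 to 7.16), without passing (adjusted p = 0.153). Tomm6 varied most between the control arrays (5.53 and 8.94) and was not called. Tomm20l, a relative of Tomm20, has a brighter probe that did not pass with 3-NPA (0.40 ± 0.23), and a dimmer one that was above background on no control array and on 1 of the 3-NPA arrays, so that no change is given for it.

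Of the SAM genes, Mtx1 fell with 3-NPA and the others did not pass. Mtx1, a metaxin that holds the complex at the outer membrane, read 19.7 and 18.1 on the control arrays, 18.6 and 15.3 with Mn, 17.8 and 17.6 with MPP+, and 12.4 and 11.5 with 3-NPA. The 3-NPA arrays lay below all 6 others. The change was -0.66 ± 0.12 (1.58-fold lower, adjusted p = 0.0082), lost only without 3-NPA replicate 2 (adjusted p = 0.0547) among 20 alternatives. Mtx2 and Samm50, the barrel-inserting channel, were lower on both 3-NPA arrays than on both control arrays but did not pass (-0.27 ± 0.12 and -0.19 ± 0.09, adjusted p = 0.129 and 0.147). Tomm34, a cytosolic co-chaperone of precursors, did not pass against control, with changes of -0.20, -0.06 and 0.16 with Mn, MPP+ and 3-NPA. It was higher with 3-NPA than with Mn (0.35 ± 0.09, limma adjusted p = 0.0307).

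In the intermembrane space, Gfer rose with MPP+, and the relay was not called with Mn or 3-NPA. Gfer, the sulfhydryl oxidase that re-oxidises the relay, read 0.422 and 0.537 on the control arrays, 0.527 and 0.565 with Mn, 0.732 and 0.704 with MPP+, and 0.498 and 0.478 with 3-NPA. The MPP+ arrays were above all others, and the rise was 1.51-fold (0.59 ± 0.13, adjusted p = 0.0359). It was lost in 10 of 21 alternatives, including the removal of control replicate 1 or of any one Mn, MPP+ or 3-NPA array. Chchd4, the import receptor and oxidoreductase of the relay, read 0.911 and 0.955 with MPP+ and 0.739 and 0.744 on the control arrays. Its change of 0.33 ± 0.10 with MPP+ did not pass (adjusted p = 0.084), and with 3-NPA it was -0.09 ± 0.10.

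The small TIM chaperones were called in both directions. Of 7 genes, 3 were higher and 2 lower with 3-NPA, 3 higher and 1 lower with MPP+, and 1 higher with Mn. Over all genes 22.3% were higher and 16.0% lower with 3-NPA, 7.47% and 6.47% with MPP+, and 4.50% higher with Mn. Without Timm8a2, which was dim on all but the 3-NPA arrays, 2 of 6 were higher and 2 lower with 3-NPA, and 3 higher and 0 lower with MPP+. These proteins work as hexamers, Timm9 with Timm10 and Timm8a1 with Timm13. Timm8a1, whose human counterpart is mutated in deafness-dystonia syndrome, was the one import gene called with every toxin. It read 3.37 and 4.08 on the control arrays, 6.2 and 5.72 with Mn, 6.57 and 7.06 with MPP+, and 6.0 and 6.14 with 3-NPA. Both control arrays lay below all 6 treated arrays, which reached from 5.72 to 7.06. The rise was 1.61-fold with Mn (0.69 ± 0.12, adjusted p = 0.0272), 1.84-fold with MPP+ (0.88 ± 0.12, adjusted p = 0.00935) and 1.64-fold with 3-NPA (0.71 ± 0.12, adjusted p = 0.00624). The 3-NPA call held in all 20 alternatives, the MPP+ call was lost without either MPP+ array and with the 4 arrays alone, and the Mn call was lost in 10 of 21. Its partner Timm13 read 8.40 and 8.78 on the control arrays and 6.67 and 5.77 with 3-NPA (-0.47 ± 0.13, adjusted p = 0.0303), a fall lost in 6 of 20 alternatives: array weights, the 4 arrays alone, and leaving out either control array or either 3-NPA array (adjusted p up to 0.153).

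Timm8b, a relative of Timm8a1, moved the other way with 3-NPA. Its levels were 8.53 and 10.2 on the control arrays, 9.23 and 7.59 with Mn, 7.85 and 7.43 with MPP+, and 5.34 and 4.83 with 3-NPA. The 3-NPA arrays were the lowest of the 8, the MPP+ arrays lay between them and control, and the Mn arrays overlapped control. The fall with 3-NPA was 1.84-fold (-0.88 ± 0.14, adjusted p = 0.00552) and passed in all 20 alternatives. Timm9 rose with MPP+ (0.50 ± 0.09, adjusted p = 0.0215) and 3-NPA (0.36 ± 0.09, adjusted p = 0.0261), from 2.37 and 2.58 on the control arrays to 3.48 and 3.52 with MPP+ and 3.16 and 3.18 with 3-NPA. The Mn arrays lay between, at 2.72 and 2.96, and no group overlapped another. Each Timm9 call was lost in 7 alternatives, among them the 4 arrays alone and the removal of control replicate 1 or of any one MPP+ or 3-NPA array.

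Timm10, the partner of Timm9, was above both control arrays with Mn and MPP+ and below them with 3-NPA, and did not pass with any of the 3 (0.23, 0.23 and -0.09, each ± 0.09). Timm10b, which docks the hexamers on the TIM22 complex, rose with MPP+ (0.50 ± 0.11, adjusted p = 0.0357), from 3.25 and 3.38 to 4.81 and 4.55, and was 4.79 and 4.02 with Mn (0.40 ± 0.11, adjusted p = 0.0841). A further Timm10b probe, which overlaps the first, gave 0.49 ± 0.14 with MPP+ and did not pass over all probes (adjusted p = 0.0749), and the call was lost with the 4 arrays of these groups, the 6 arrays of the first extraction run or the replicate block, and without any one control, MPP+ or 3-NPA array. Timm8a2, a gene related to Timm8a1, was not well above background on any control, Mn or MPP+ array and was above it on both 3-NPA arrays (0.0222 and 0.0221). The dim signals were 0.00673 and 0.00369 with Mn and 0.00406 and 0.00394 with MPP+. For a fold, each dim array was taken at the lowest signal well above background on it. The 3-NPA signal was then 1.48-fold that with Mn and 2.32-fold that with MPP+. Such a lowest signal does not strictly bound a dim probe, so neither fold is a minimum. No fold is given against control, where the dim signal was 0.00818 and 0.0112. The gene entered the test only through its signal with 3-NPA, so these values are a description. The fitted changes, 1.21 ± 0.29 with 3-NPA and -1.26 ± 0.29 with MPP+, shrank to 0.24 and -0.36 with normexp. The MPP+ value was 0.11 after quantile normalization, and a further probe of the gene was not well above background on any array.

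**Figure D3:**
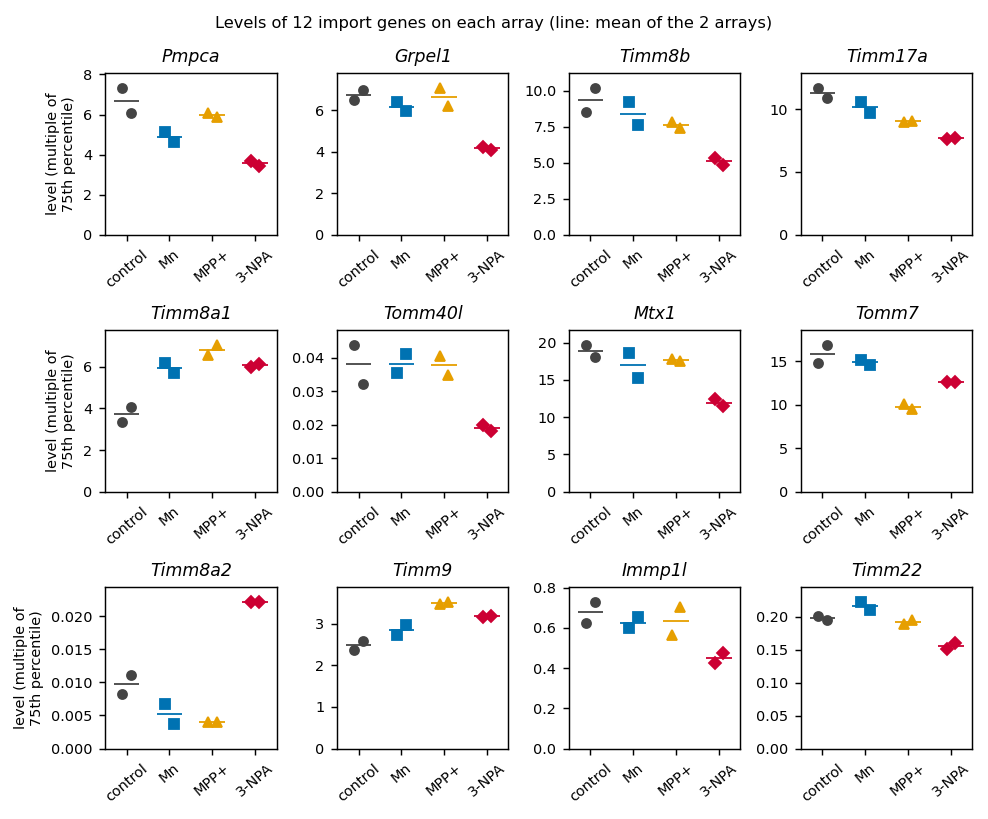
Levels of the 12 import genes with the smallest adjusted p against control, as multiples of each array's 75th percentile, with 1 symbol per array, a line at the mean of the 2 arrays and axes that start at 0. The 3-NPA arrays are lowest for Pmpca, Grpel1, Timm8b, Timm17a, Mtx1, Immp1l and Timm22, the control arrays are lowest for Timm8a1 and Timm9, and the MPP+ arrays are lowest for Tomm7.

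At the inner membrane, the Timm17 subunits and Timm22 fell with 3-NPA while Timm23 itself did not pass. Timm17a, a channel-forming partner of Timm23 (probe on rn4 chromosome 13, 48297735 to 48297794), read 11.7 and 10.9 on the control arrays, 10.6 and 9.68 with Mn, 8.98 and 9.09 with MPP+, and 7.64 and 7.74 with 3-NPA. No group overlapped another, in the order control, Mn, MPP+ and 3-NPA from high to low. The fall with 3-NPA was 1.47-fold (-0.56 ± 0.09, adjusted p = 0.00568) and passed in all 20 alternatives, while the MPP+ value, -0.33 ± 0.09, did not pass (adjusted p = 0.0672). Timm17b read 2.62 and 2.06 on the control arrays and 1.57 and 1.56 with 3-NPA (-0.57 ± 0.15, adjusted p = 0.0304), a fall that was lost with the 4 arrays alone and without control replicate 1 or any one MPP+ or 3-NPA array (adjusted p up to 0.116).

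Timm23, the channel subunit, read 19.3 and 22.0 on the control arrays and 22.8 to 23.4 on the 6 treated arrays. Its changes of 0.15, 0.17 and 0.18 (each ± 0.09) with Mn, MPP+ and 3-NPA did not pass, and 2 further probes gave 0.12 and 0.01 with 3-NPA. The first of these overlaps the brightest probe. Timm21, which links TIM23 to the TOM complex, did not pass with 3-NPA (-0.15 ± 0.09). Timm22, the channel that inserts carriers, read 0.202 and 0.195 on the control arrays, 0.223 and 0.210 with Mn, 0.189 and 0.196 with MPP+, and 0.152 and 0.161 with 3-NPA. The 3-NPA arrays lay below all others and the fall was 1.27-fold (-0.34 ± 0.09, adjusted p = 0.0251), lost with the 4 arrays alone and without control replicate 1 or any one MPP+ or 3-NPA array (adjusted p up to 0.140).

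In the import motor, Grpel1 fell with 3-NPA and its relative Grpel2 did not pass. Grpel1, the nucleotide exchange factor of the motor's heat shock protein (probe on rn4 chromosome 14, 79873665 to 79873724), read 6.51 and 7.0 on the control arrays, 6.40 and 5.96 with Mn, 7.09 and 6.23 with MPP+, and 4.25 and 4.10 with 3-NPA. The other 6 arrays lay between 5.96 and 7.09, and both 3-NPA arrays were far below them. The fall was 1.62-fold (-0.69 ± 0.10, adjusted p = 0.00419) and passed in all 20 alternatives. Grpel2, which carries out the same exchange, was higher than both control arrays on both 3-NPA and both MPP+ arrays, with changes of 0.29 ± 0.13 and 0.34 ± 0.13 (adjusted p = 0.133 and 0.142). Its other probe gave -0.02 ± 0.13 with 3-NPA.

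Timm44, which anchors the motor at the TIM23 channel, was dim. It was well above background on both MPP+ arrays (0.0306 and 0.0220) and 1 Mn array, and on no control or 3-NPA array. Its fitted change with 3-NPA was -1.20 ± 0.33 (adjusted p = 0.0334), which was -0.31 with normexp and was lost with array weights and without either control array or 3-NPA replicate 1. Timm44 was dim with 3-NPA and on the control arrays, so no fold is given there. Magmas (current symbol Pam16), a J-like protein of the motor that lies outside the chosen names, read 9.54 and 10.5 on the control arrays and 13.3 and 12.6 with 3-NPA. It rose (0.37 ± 0.11, adjusted p = 0.0436) where Grpel1 fell, and did not pass with Mn (0.13 ± 0.11) or MPP+ (0.33 ± 0.11).

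The processing peptidase gave the smallest adjusted p of all import genes against control, in one of its subunits. Pmpca, the substrate-binding alpha subunit (probe on rn4 chromosome 3, 4568486 to 4568545), read 7.33 and 6.07 on the control arrays, 5.15 and 4.65 with Mn, 6.06 and 5.86 with MPP+, and 3.70 and 3.42 with 3-NPA. The 3-NPA arrays were the lowest, the Mn arrays came next, and no treated group overlapped control. The fall with 3-NPA was 1.87-fold (-0.91 ± 0.12, adjusted p = 0.00297, 95% interval -1.21 to -0.61) and passed in all 20 alternatives. A dimmer Pmpca probe starting 213 bases further along also fell, by less (-0.47 ± 0.09, adjusted p = 0.0108 over all probes). With Mn the brighter probe gave -0.45 ± 0.12 and the dimmer one -0.10 ± 0.09, and neither passed (adjusted p = 0.0865 for the former).

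Pmpcb, the catalytic beta subunit that pairs with Pmpca, read 32.2 and 35.4 on the control arrays and 28.5 and 30.9 with 3-NPA. Its change of -0.19 ± 0.10 did not pass (adjusted p = 0.18), and the difference between the changes of the subunits was not tested. Immp1l, a subunit of the inner membrane peptidase, read 0.627 and 0.730 on the control arrays, 0.598 and 0.654 with Mn, 0.566 and 0.705 with MPP+, and 0.428 and 0.474 with 3-NPA. The 3-NPA arrays lay below all others and the fall was 1.5-fold (-0.59 ± 0.15, adjusted p = 0.0238), lost with array weights and without control replicate 2 or either 3-NPA array (adjusted p up to 0.12). Timmdc1, which shares the Timm name and is known for complex I assembly, did not pass with MPP+ (0.48 ± 0.19) or 3-NPA (-0.04 ± 0.19).

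**Figure D4:**
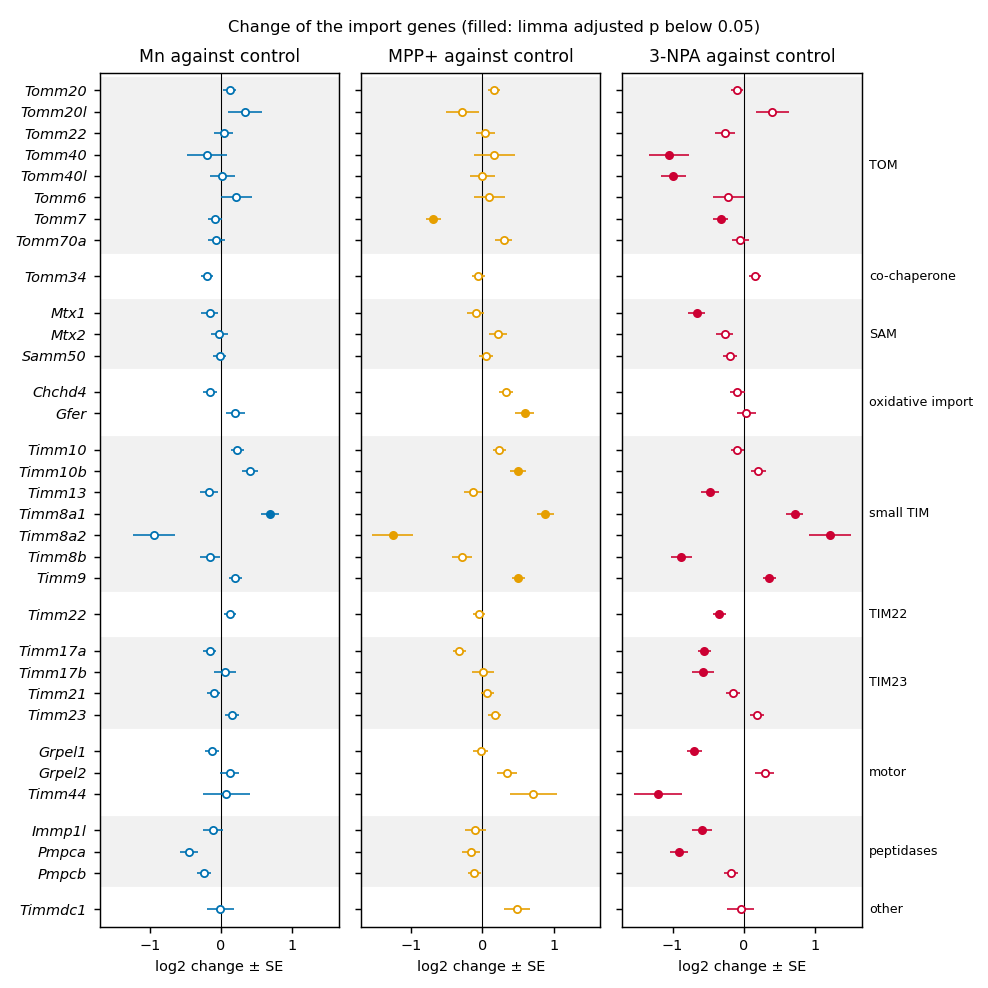
Log2 change against control (± SE) of each of the 33 import genes for Mn, MPP+ and 3-NPA, grouped by role, with filled symbols for a limma adjusted p below 0.05. Filled symbols number 1, 6 and 16, and of the 16 with 3-NPA 13 lie left of 0 and 3 (Timm8a1, Timm8a2 and Timm9) right of it.

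Replicate arrays differed least over these genes with MPP+ and 3-NPA. The median difference between replicate arrays over the import genes was 0.06 on the log2 scale for MPP+ and for 3-NPA, 0.13 for Mn and 0.18 for control. Over all genes it was 0.10 for MPP+, 0.12 for 3-NPA, and 0.19 for both Mn and control. Of the 33 genes, 18 were called against control with at least 1 toxin, as were 43.5% of all genes. Of these, 14 were called with 1 toxin, 3 with 2 and 1 with all 3, where the shares of all genes were 30.7%, 9.34% and 3.5%. Timm8a2 was the one gene called in opposite directions, and it rests on signals near background.

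Set directly against the other toxins, 3-NPA had the lower level for most of the import genes that were called, and these comparisons share the 3-NPA arrays with the one against control. Against MPP+, which lay in the same row of the slide, 13 of 33 were lower and 2 higher (31.0% of all genes were called, 12.9% lower and 18.1% higher), with a median of -0.31 against 0.03 over all genes. Against Mn, 10 were lower and 2 higher (28.6% of all genes, 11.7% lower and 16.9% higher), with a median of -0.24 against 0.06. Grpel1 was 1.59-fold lower with 3-NPA than with MPP+ (-0.67 ± 0.10, adjusted p = 0.00612) and 1.48-fold lower than with Mn (-0.57 ± 0.10, adjusted p = 0.0112). Pmpca was 1.68-fold lower than with MPP+ (adjusted p = 0.00757) and 1.37-fold lower than with Mn (adjusted p = 0.038). Timm8b was 1.5-fold and 1.65-fold lower than with MPP+ and Mn (adjusted p = 0.0255 and 0.0139), and Mtx1 1.48-fold and 1.42-fold lower (adjusted p = 0.0172 and 0.0265). Timm44 entered the test only through its signal with MPP+. It was 2.43-fold lower with 3-NPA, where each dim array was taken at the lowest signal well above background on it. This fold is a description and not a strict minimum. Among the 30 import genes above background on all 8 arrays, 11 were lower and 1 higher than with MPP+, and 8 lower and 1 higher than with Mn. Of all such genes 15.8% were lower and 16% higher than with MPP+, and 14.4% lower and 14.6% higher than with Mn.

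Both genes of the oxidative relay were lower with 3-NPA than with MPP+, Gfer 1.47-fold (adjusted p = 0.0239) and Chchd4 1.34-fold (adjusted p = 0.0251). Tomm7 was the exception in the pore, 1.29-fold higher with 3-NPA than with MPP+ (0.36 ± 0.10, adjusted p = 0.0401). Between MPP+ and Mn, Chchd4 was higher (0.48 ± 0.10, adjusted p = 0.0402) and Tomm7 lower (-0.60 ± 0.10, adjusted p = 0.0223) with MPP+, and the other 31 were not called, where 9.10% of all genes were called (4.22% higher and 4.88% lower). Timm8a1 showed no call among the toxins, with differences of 0.19, 0.03 and -0.17, each ± 0.12. The 15 calls between 3-NPA and MPP+ were fewer without either 3-NPA array or either MPP+ array. The 12 calls between 3-NPA and Mn were fewer without either 3-NPA array, either MPP+ array or Mn replicate 1. The 2 calls between MPP+ and Mn were fewer without Mn replicate 1 or any one control, MPP+ or 3-NPA array. The share of all genes called in these fits is not given here. These losses therefore cannot be read as particular to the import genes.

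Partners of the import machinery were called in 2.94% of cases with Mn (7.66% of all genes), 11.8% with MPP+ (13.9%) and 17.6% with 3-NPA (38.3%), and these differences were not tested. The list, which was written with earlier results known, held 34 genes that work beside it: cytosolic and mitochondrial chaperones, J proteins of the motor, organisers of the inner membrane folds (MICOS) and matrix peptidases. All 34 were tested. With MPP+ 4 rose: Hspa9, the heat shock protein that drives the motor (1.21 ± 0.11, adjusted p = 0.00295), the MICOS subunits Chchd6 (1.07 ± 0.10) and Chchd3 (0.47 ± 0.09), and the J protein Dnajc15 (0.44 ± 0.10). That is 11.8% of the list, against 7.47% of all genes that were higher, and the other 30 were not called. With Mn the call was a rise of Chchd6 (0.54 ± 0.10, adjusted p = 0.0311). With 3-NPA 6 fell, which is 17.6% of the list against 16.0% of all genes, among them the J protein Dnajc19 (-0.48 ± 0.11, listed on the array under a locus name), the MICOS subunit Apoo (-0.58 ± 0.16), the matrix peptidase Mipep (-0.41 ± 0.11), and the cytosolic chaperones Hspa8 (-0.40 ± 0.08) and Dnaja1 (-0.57 ± 0.08). None of the 34 rose with 3-NPA in limma, where 22.3% of all genes were higher. At an unadjusted p below 0.05 in limma 1 was higher, where 4664 of all 16908 genes were. Hspa9 did not pass with 3-NPA (0.25 ± 0.11, adjusted p = 0.117).

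Markers of neurons and of other cell types also differed between the groups. Of 7 neuronal markers 6 were on the array and 2 were above background in each group, and their summed level was 1.63 to 1.71 on the control arrays, 2.02 to 2.72 with Mn, 2.23 to 2.38 with MPP+ and 4.27 to 4.77 with 3-NPA. Within that sum the markers above background went opposite ways with 3-NPA: Tubb3, a neuronal tubulin, was higher (1.77, adjusted p = 0.000733) and Map2, a dendritic protein, lower (-0.81, adjusted p = 0.0349). Syt1, Snap25, Nefl and Gap43 were not well above background on any array. The summed level of 5 fibroblast markers was 0.688 to 0.786 on the control arrays, 1.07 to 1.14 with Mn, 0.372 to 0.391 with MPP+ and 1.43 to 1.45 with 3-NPA, with Dcn and Lum not well above background on any array. That of 4 endothelial markers was 0.113 to 0.146 on the control arrays and 0.250 to 0.258 with 3-NPA. It was 0.108 to 0.11 with Mn and 0.107 to 0.12 with MPP+. Of the 4, 0 were above background in the control group, 1 with Mn, 3 with MPP+ and 3 with 3-NPA. Tek was not well above background on any array. The summed level of 6 astrocyte markers was 0.480 to 0.555 on the control arrays, 0.344 to 0.398 with Mn, 0.391 to 0.406 with MPP+ and 0.422 to 0.431 with 3-NPA. Gja1, a gap junction gene of that list, was lower with each toxin (-0.996, -1.03 and -0.855 with Mn, MPP+ and 3-NPA). Aldh1l1 of the same list went the other way, higher with MPP+ (0.366, limma adjusted p = 0.0379) and 3-NPA (0.458, limma adjusted p = 0.00797). It was not called with Mn (0.089), and Aqp4 was not called with any toxin. S100b was not well above background on any array. The summed level of 5 oligodendrocyte markers was 0.09 to 0.118 on the control arrays and 0.17 to 0.171 with 3-NPA, with 0 and 3 above background. It was 0.135 to 0.137 with Mn and 0.0981 to 0.115 with MPP+, with 2 above background in each. That of 6 microglia markers was 0.331 to 0.471 on the control arrays and 0.496 to 0.5 with 3-NPA. It was 0.409 to 0.448 with Mn and 0.272 to 0.33 with MPP+. The part of such shifts in the results for the import genes was not tested.

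The promoters of the import genes were searched for motifs of regulators known for nuclear genes of mitochondria, because many members were lower together with 3-NPA. RefSeq's GRCr8 table gave 300 bases (250 before the start to 50 after it) for 32 of the 33 genes. The motif of NRF1, a known activator of such genes, was searched as GCGCATGCG on both strands and was present in 3 of 32 (9.38%), against 1.52% of 33469 promoters of the same length. A composite element bound by C/EBP and ATF factors, searched as TGATGCAAT on both strands, was present in 0 of 32 and in 0.188% of all. The import gene promoters had a median GC content of 58.0%, against 51.7% over all, and the motif is rich in G and C. The 3 windows of 100 bases are shown so that the motif's position can be compared, with capitals for the run that matches on both strands, where the matches overlap by all but 1 base. They are chr14:78522846-78522945 (minus strand) for Grpel1, chr4:12197425-12197524 (plus strand) for Tomm7 and chr4:125534699-125534798 (minus strand) for Chchd4.
Grpel1: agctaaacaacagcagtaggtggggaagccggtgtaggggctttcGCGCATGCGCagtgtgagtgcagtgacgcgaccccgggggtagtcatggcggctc
Tomm7: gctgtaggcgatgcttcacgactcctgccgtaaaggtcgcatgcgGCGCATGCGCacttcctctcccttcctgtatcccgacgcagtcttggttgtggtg
Chchd4: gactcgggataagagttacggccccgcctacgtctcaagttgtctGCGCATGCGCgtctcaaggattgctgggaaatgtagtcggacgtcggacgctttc

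The run begins 32 bases before the start of Grpel1, 33 before that of Tomm7 and 191 before that of Chchd4. Their own changes were not alike. With MPP+ the changes of Tomm7, Grpel1 and Chchd4 were -0.69, -0.02 and 0.33, and with 3-NPA they were -0.33, -0.69 and -0.09. A match describes these letters only and shows no binding.

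Some members also lie next to each other. On rn4 chromosome 6 the Timm9 probe (93218921 to 93218980, minus strand) is 399 bases from a Tomm20l probe (93218464 to 93218521, plus strand), on opposite strands. No probe used carried the name Tomm5, Timm50, Mtx3 or Immp2l, further known import genes, so these were not analysed here.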

How the data were processed

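RNA from N27 cells was labelled with Cy3 and hybridised to 8 single-colour arrays. Spot intensities were made by the authors with Agilent Feature Extraction 11.5.1.1 and are background-subtracted processed signals with probe positions on rn4, per the file headers. As log2 values, the table deposited with the series is relative to about each array's 75th percentile (column medians -4.38 to -3.99, r of 0.9966 or more with the processed signal). How it was made is not given in the sources used here, and it served as an alternative.

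Outlier spots were left out, spots of a probe were averaged on the log2 scale, and each array's 75th percentile was set to 0. A probe counted as above background where more than 0.5 of its spots were so marked. The 19460 probes above it on both arrays of any group entered, and a gene was represented by its brightest one. One limma 3.58.1 fit (R 4.3.3) over all 8 arrays gave 6 comparisons, with Benjamini-Hochberg adjustment over all 16908 genes and a threshold of 0.05. An exact permutation of 2 arrays against 2 cannot go below 0.333 (2-sided), so none was used. All array values are given for the 12 members with the smallest adjusted p against control, and other members are given by their changes. Members and lists were chosen with earlier results of these data known. Of 41 member probes, 37 carried an accession of the RefSeq table, and promoters are RefSeq sequences of GRCr8. Alternatives covered background, scaling, filters, probe choice, variance models, arrays used, a replicate block and each array left out. One called gene of the partner list is not reported here.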

Additional observations from a re-analysis of the deposited data

How the results depend on the processing

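Pmpca, Grpel1, Timm8b, Timm17a and Timm8a1 with 3-NPA passed in all 20 alternatives, and Tomm40l in the 19 it was tested in. Of all values of named genes the one that turned was Timm8a2 with MPP+, 0.106 after quantile normalization. The calls with Mn numbered 2 after quantile normalization, 3 with trended and robust variances, and 0 with array weights, the 4 arrays alone or the 6 arrays of the first extraction run. The shares of all genes called were 9.11%, 9.68%, 2.6%, 0.0355% and 3.86%, in that order. Calls with MPP+ numbered 1 with the 4 arrays alone (5.78% of all genes) and 2 with the 6 arrays (7.6%). Those with 3-NPA numbered 10 with the 4 arrays alone (29.8%). Between MPP+ and Mn there were 4 with normexp (11.8% of all genes) and 0 with scaling by the array median (6.42%), no filter on dim probes, the 4 arrays or the 6 arrays. Between 3-NPA and Mn there were 5 with no filter and 6 with the 4 arrays. Between 3-NPA and MPP+ there were 25 with scaling by the median, 7 with no filter and 27 with array weights. Where no share of all genes is given, a count cannot be read as particular to the import genes. The causes were not tested. Scaling by the median moved the medians with 3-NPA to -0.338 (control), -0.459 (Mn) and -0.568 (MPP+). Leaving out 1 array gave 0 to 2 calls with Mn, 0 to 6 with MPP+, 7 to 15 with 3-NPA, 0 to 2 between MPP+ and Mn, 2 to 14 between 3-NPA and Mn, and 3 to 18 between 3-NPA and MPP+. Where this leaves 1 array in a group, that array is assumed to vary like the others.

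With the replicate block the calls numbered 3 with MPP+ (12.1% of all genes) and 1 between MPP+ and Mn, while the other comparisons stayed within 1.5 times. The labels do not say whether equal replicate numbers pair the arrays. Deviations of same-numbered arrays correlated at -0.024 to 0.098, apart from 0.5 between Mn and 3-NPA. Probes dim on the control arrays limit Tomm40l, Timm44 and Timm8a2 most.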
